A study of Arabidopsis thaliana with 16 samples.

Results

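The 27 genes described here were those with clearly less signal in the chloroplast import mutant ppi2 than in its wild type (WT) on an expression array of Arabidopsis thaliana. They were chosen by the readout itself. Each had a probe that the platform annotation assigned to that gene alone, a mean log2 level in ppi2 at least 1.5 below that in WT, and a level in all 8 ppi2 samples below that in all 8 WT samples. Of 692 single-gene probes among 3439 probes on the array, 37 met these criteria, which is 5.35%, and 58 (8.38%) had all ppi2 samples below all WT samples whatever the size. From these, 9 genes of photosynthesis, plastid biogenesis and the cell wall that the rule names were set aside, as was 1 gene of a pentatricopeptide repeat protein, AT3G26630. Because the same difference chose the members, their differences are given as a description with no test.

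The samples were 8 of the Arabidopsis ppi2 mutant and 8 of WT, both of ecotype Wassilevskija, from which total RNA was measured. No tissue, age, growth condition, treatment or batch is named in the labels, and separate plants or cultures are not stated. The SD values and p-values that follow therefore cover sample-to-sample variation alone, part or all of it possibly technical. Each sample correlated best with its consecutively numbered neighbour, so means ± SD are over 4 averaged pairs per genotype (n = 4).

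As background, most chloroplast proteins are encoded in the nucleus, made in the cytosol as precursors and taken up through translocons in the outer and inner envelope. The ppi2 mutant lacks Toc159, the outer-envelope receptor with a preference for abundant photosynthetic precursors. It is known for albino plants with undeveloped thylakoids and for reduced expression of photosynthetic nuclear genes. The question of the series was which transcripts differ when this import route is impaired. No probe was annotated with Toc159, so the mutated gene gave no check of the labels. Of 28 marker genes of leaf, root, seed, epidermis, phloem and housekeeping, 1 had a probe of its own, so the tissue could not be checked either. Fewer cells of a type and less RNA per cell cannot be told apart in such bulk samples.

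Levels are normalized intensities on the deposited scale, which ends at 100, after quantile normalization between samples. Values under a floor of 0.034 were set to it. A mean level is a geometric mean over the 8 samples of a genotype, and a fold is the ratio of the 2 means. The members were 2.86-fold to 8.95-fold lower in ppi2, with a median of 4.43-fold. In 8 members at least 1 ppi2 sample was at the floor, so their folds depend on where the floor is set. Of the other 19, 2 were at least 8-fold lower, 9 between 4-fold and 8-fold, and 8 less than 4-fold. A higher floor also lowered the folds of some of these 19, among them AT4G39760. The median log2 difference was -2.15 over the members and 0.00 over all single-gene probes.

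**Figure D1:**
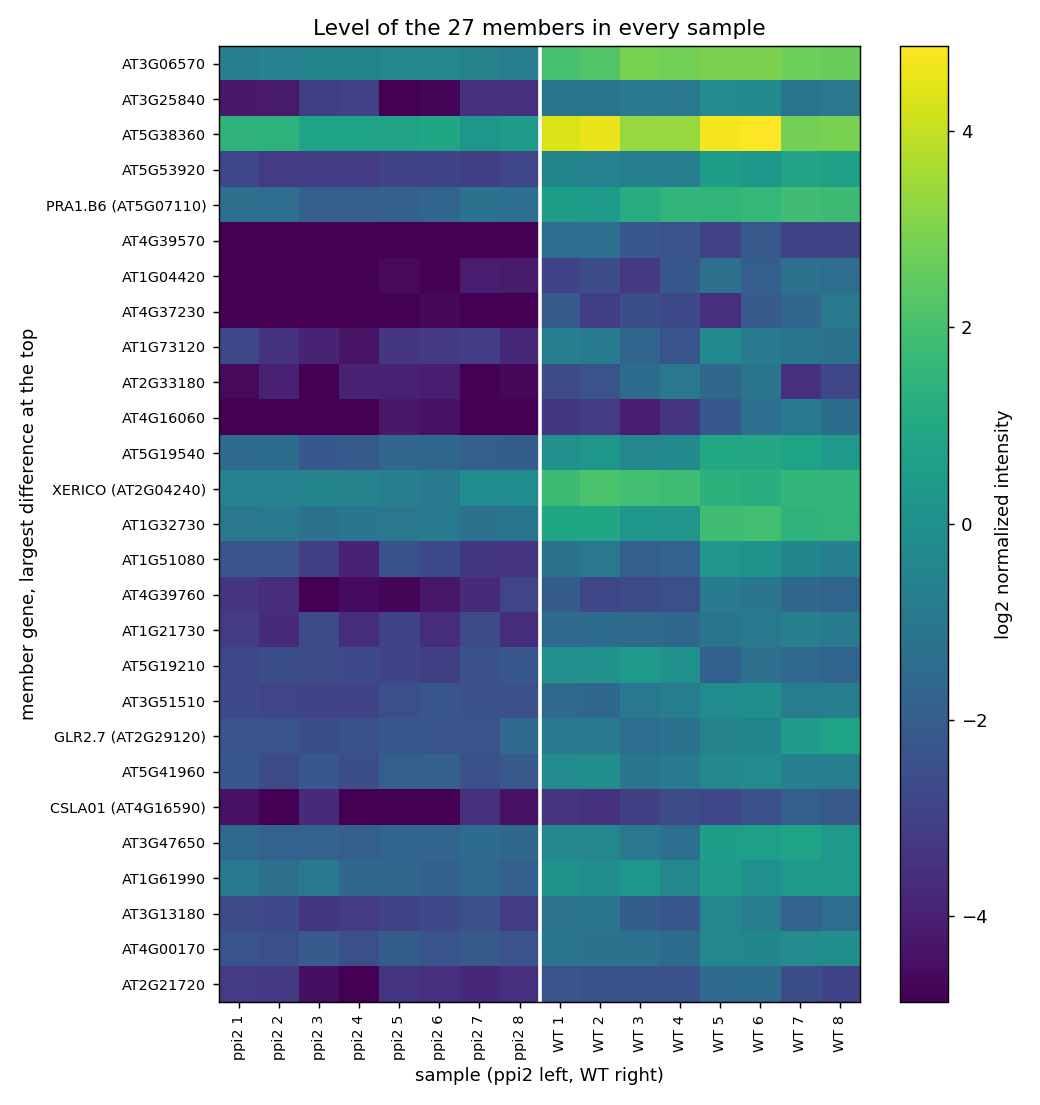
Log2 normalized intensity (colour) of the 27 members (rows, largest difference at the top) in the 8 ppi2 samples (left of the white line) and the 8 WT samples (right). Darker colours in ppi2 than in WT in every row follow from the rule, and AT5G38360, AT3G06570 and XERICO are the brightest rows in ppi2.

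The mean levels of the members ran from 0.034 to 1.79 in ppi2, with a median of 0.136, and from 0.149 to 14.6 in WT, with a median of 0.574. Over all single-gene probes the median mean level was 0.183 in ppi2 and 0.179 in WT. In ppi2, 11 members lay above the median of the single-gene probes, and in WT 26 did, CSLA01 being the exception. The rule favours probes bright in WT, because a dim WT value cannot lie far enough above the floor, so this count is a description of the choice. No member was at the floor in any WT sample, which the rule requires. In ppi2, 19 members were above the floor in every sample, 7 were at the floor in some samples and 1 in all 8.

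**Figure D2:**
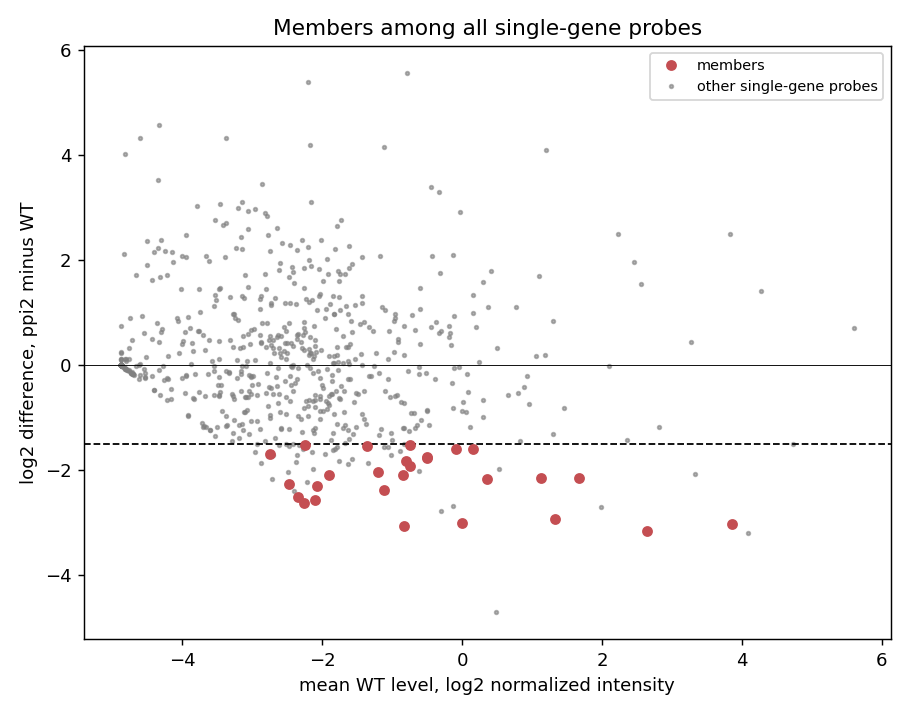
Log2 difference between ppi2 and WT (vertical axis) against the mean log2 normalized intensity in WT (horizontal axis) for the 692 single-gene probes, with members in red and the size limit of -1.5 dashed. Grey points below the dashed line are probes whose samples overlapped or genes that the rule sets aside.

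Proteins of regulation and signalling made up 6 members, 3.39-fold to 8.95-fold lower in ppi2. The RefSeq table used here gives a symbol for 4 of the 27 members and only a locus tag for 23. Where a role is given for any of these 23, it comes from general knowledge of Arabidopsis. The grouping by role was made after the values were seen. AT3G06570, an F-box protein with kelch repeats, had the largest difference with the normalization and floor used here and all WT samples taken. With the floor at the 1st percentile of positive intensities, 3 members with most or all ppi2 samples at the floor (AT4G39570, AT4G37230 and AT1G04420) had larger folds. F-box proteins select targets for ubiquitin ligases. The lowest, median and highest levels of AT3G06570 were 0.612, 0.703 and 0.780 in ppi2, against 4.06, 6.74 and 7.74 in WT. The genotypes were far apart, since the lowest WT sample was 5.21-fold above the highest ppi2 sample. That was the widest gap of any member. Its log2 difference was -3.16, with an SD over pairs of 0.12 in ppi2 and 0.36 in WT.

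AT4G39570, another F-box protein with kelch repeats, was at the floor in all 8 ppi2 samples. As deposited, 5 of its ppi2 values were exact zeros. In WT its lowest, median and highest levels were 0.131, 0.205 and 0.401. Its 6.13-fold difference was set by the floor on the ppi2 side and is not a measured ratio. A relative of the same class, AT4G39760, averaged a log2 level of -3.98 ± 0.72 in ppi2 and -1.90 ± 0.76 in WT, and was 4.23-fold lower in ppi2. For AT4G39760 the lowest WT sample was only 1.01-fold above the highest ppi2 sample, the narrowest gap of any member. In the RefSeq gene order 22 protein-coding genes lie between AT4G39570 and AT4G39760 on chromosome 4. They were the closest members on the genome, and 0 pairs of members were adjacent.

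AT3G25840, a protein kinase of the PRP4 type that acts on splicing factors, had levels of 0.034, 0.0679 and 0.124 in ppi2 (lowest, median and highest), against 0.461, 0.501 and 0.879 in WT. It was 8.37-fold lower, with 1 ppi2 sample at the floor. Its ppi2 pairs spread more (SD 0.77 on the log2 scale) than those of any other member, while its WT pairs had an SD of 0.42. XERICO (AT2G04240), a small RING-H2 protein known to raise abscisic acid levels, averaged -0.48 ± 0.27 in ppi2 and 1.67 ± 0.29 in WT on the log2 scale. Its mean level was 0.715 in ppi2 and 3.17 in WT, a 4.44-fold difference with no sample near the floor. GLR2.7 (AT2G29120), of the glutamate receptor-like channels, averaged -2.27 ± 0.24 in ppi2 and -0.51 ± 0.82 in WT and was 3.39-fold lower.

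Among 4 members of membrane traffic, cell wall and motor proteins the folds ran from 2.88 to 7.59. PRA1.B6 (AT5G07110), a prenylated RAB acceptor of the endomembrane system, had levels of 0.254, 0.341 and 0.430 in ppi2 (lowest, median and highest), against 1.44, 2.85 and 3.67 in WT. All its samples were well off the floor, and the lowest WT sample was 3.35-fold above the highest ppi2 sample. The single other RAB acceptor with a probe of its own was PRA1.B3 (AT5G05380). Its lowest, median and highest levels were 0.348, 0.934 and 1.93 in ppi2, against 0.859, 1.03 and 1.39 in WT. The genotypes overlapped, and PRA1.B3 did not pass the test (log2 difference -0.17 ± 0.46 SE, 95% interval -1.27 to 0.92, limma with Benjamini-Hochberg adjusted p = 0.852). By that fit across all probes, 28.6% of the 3439 probes and 27.9% of the 692 single-gene probes differed between ppi2 and WT.

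AT1G21730, a kinesin motor protein, averaged -3.23 ± 0.15 in ppi2 and -1.20 ± 0.39 in WT on the log2 scale and was 4.10-fold lower. A further probe, which the rule did not use, is annotated with AT1G21730 and the loci AT5G06670 and AT3G12020. It read 0.248, 0.288 and 0.321 in ppi2 (lowest, median and highest), against 1.42, 2.28 and 2.87 in WT. It was 7.32-fold lower in ppi2, with no overlap of the genotypes in 8 samples each (log2 difference -2.87 ± 0.23 SE, limma adjusted p = 0.000366). The signal of such a probe cannot be assigned to 1 of its genes. CSLA01 (AT4G16590), a glycosyltransferase of the cellulose synthase-like A family that makes mannan chains, was the dimmest member in WT. It averaged -4.44 ± 0.40 in ppi2, with 3 samples at the floor, and -2.74 ± 0.57 in WT, a 3.23-fold difference partly set by the floor. AT4G00170, of the VAMP-associated proteins that tether the endoplasmic reticulum to other membranes, was 2.88-fold lower. Its levels were 0.178, 0.197 and 0.248 in ppi2 (lowest, median and highest), against 0.369, 0.590 and 0.941 in WT.

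Proteins of families that act on RNA or on protein synthesis and assembly in organelles made up 5 members, 2.89-fold to 7.99-fold lower, with a median of 3.04-fold. The labels do not state how genes were chosen for the array, so the number of such genes is not read as a preference. AT5G53920, a relative of the bacterial PrmA enzyme that methylates ribosomal protein L11 in Escherichia coli, had the largest difference of the 5 against all WT samples. Its levels were 0.109, 0.124 and 0.144 in ppi2 (lowest, median and highest), against 0.607, 0.961 and 1.75 in WT. The ppi2 pairs were tight (SD 0.10 on the log2 scale) and the WT pairs less so (SD 0.69). AT5G19210, a DEAD-box RNA helicase, averaged -2.66 ± 0.25 in ppi2 and -0.74 ± 1.01 in WT and was 3.79-fold lower. A further probe is annotated with AT5G19210 and the loci AT3G58510 and AT2G42520, and it did not pass the test. Its levels were 0.132, 0.212 and 0.261 in ppi2 (lowest, median and highest), against 0.125, 0.318 and 0.731 in WT, so that the genotypes overlapped (log2 difference -0.65 ± 0.49 SE, 95% interval -1.82 to 0.53, limma adjusted p = 0.383).

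AT3G47650, the counterpart of the maize protein BSD2, a chaperone in the assembly of Rubisco, averaged -1.69 ± 0.15 in ppi2 and -0.09 ± 0.86 in WT. It was 3.04-fold lower, and its lowest WT sample was 1.07-fold above the highest ppi2 sample. AT1G61990, of the mTERF family of nucleic acid-binding proteins in mitochondria and chloroplasts, averaged -1.44 ± 0.35 in ppi2 and 0.15 ± 0.19 in WT, a 3.03-fold difference. Its WT pairs were the tightest of any member. A further probe annotated with AT1G61990 and the loci AT1G62490, AT1G61960 and AT3G46950 read 0.359, 0.416 and 0.516 in ppi2 (lowest, median and highest), against 0.263, 0.463 and 0.667 in WT. It overlapped between the genotypes and did not pass the test (log2 difference -0.14 ± 0.17 SE, 95% interval -0.55 to 0.28, limma adjusted p = 0.609). Of the 3 probes annotated with a member among further genes, 1 passed the test, beside 28.6% of all probes, so this count is no result about the members. AT3G13180, of the NOL1/NOP2/sun family of RNA methyltransferases, read 0.103, 0.143 and 0.183 in ppi2 (lowest, median and highest), against 0.215, 0.412 and 0.768 in WT, a 2.89-fold difference.

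Enzyme families of general metabolism held 2 members. AT5G38360, of the alpha/beta hydrolases, was the brightest member in both genotypes. Its levels were 1.22, 1.70 and 2.76 in ppi2 (lowest, median and highest), against 7.06, 14.2 and 29.2 in WT, which made it 8.11-fold lower. WT samples 7 and 8 were the lowest of WT and still 2.56-fold or more above every ppi2 sample. AT1G04420, of the aldo-keto reductases, read 0.034, 0.034 and 0.0563 in ppi2 (lowest, median and highest), against 0.103, 0.237 and 0.439 in WT. Its 5.92-fold difference was set in part by the floor, met in 5 ppi2 samples.

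No role is given here for 10 members. Of those without a ppi2 sample at the floor, AT1G73120 had the largest fold, 5.20. AT4G37230 was at the floor in 7 of 8 ppi2 samples and at 0.0391 in the other, against levels of 0.0836, 0.198 and 0.523 (lowest, median and highest) in WT. As deposited, 6 of its ppi2 values were exact zeros. Its fold of 5.70 was set mostly by the floor. AT2G33180, with levels of 0.034, 0.0495 and 0.0653 in ppi2, against 0.0859, 0.250 and 0.507 in WT, was 4.94-fold lower. AT1G73120 read 0.0481, 0.0946 and 0.146 in ppi2, against 0.199, 0.502 and 0.871 in WT. AT2G33180 and AT1G73120 were separated by less than their own range within either genotype, with a lowest WT sample 1.31-fold and 1.37-fold above the highest ppi2 sample.

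AT5G19540 and AT1G32730 had clear signal in both genotypes. The mean level of AT5G19540 was 0.286 in ppi2 and 1.28 in WT, a 4.47-fold difference. That of AT1G32730 was 0.492 in ppi2 and 2.18 in WT, a 4.43-fold difference, with SDs over pairs of 0.14 in ppi2 and 0.73 in WT. In both genes the lowest WT sample was 2.04-fold above the highest ppi2 sample. Mean levels of AT1G51080 were 0.131 in ppi2 and 0.559 in WT, a 4.28-fold difference. AT3G51510 averaged 0.162 in ppi2 and 0.574 in WT, and AT5G41960 0.208 in ppi2 and 0.704 in WT. The folds of AT3G51510 and AT5G41960 were 3.55 and 3.38. AT4G16060 was at the floor in 5 ppi2 samples, with a mean of 0.0376 in ppi2 and 0.180 in WT. AT2G21720 read 0.034, 0.0868 and 0.109 in ppi2 (lowest, median and highest), against 0.133, 0.187 and 0.372 in WT.

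At the edge of the rule the values formed no step. The 3 members nearest to the size limit were AT3G13180, AT4G00170 and AT2G21720, with log2 differences of -1.53, -1.53 and -1.51. Just outside lay AT4G31530, AT5G66780 and AT1G03660, whose samples did not overlap and whose log2 differences were -1.49, -1.45 and -1.43. AT4G31530 was brighter than any member, with levels of 8.51, 9.14 and 10.5 in ppi2 (lowest, median and highest), against 11.5, 26.4 and 62.1 in WT. AT5G66780 read 0.545, 0.600 and 0.887 in ppi2, against 1.04, 2.05 and 2.35 in WT. AT1G03660 read 0.0595, 0.1001 and 0.134 in ppi2, against 0.188, 0.272 and 0.398 in WT. A further 29 single-gene probes, with genes that the rule sets aside included, were past the size limit but overlapped between genotypes. Of those that the rule does not set aside, AT1G62250 came nearest, with its lowest WT sample at 0.98 times its highest ppi2 sample.

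**Figure D3:**
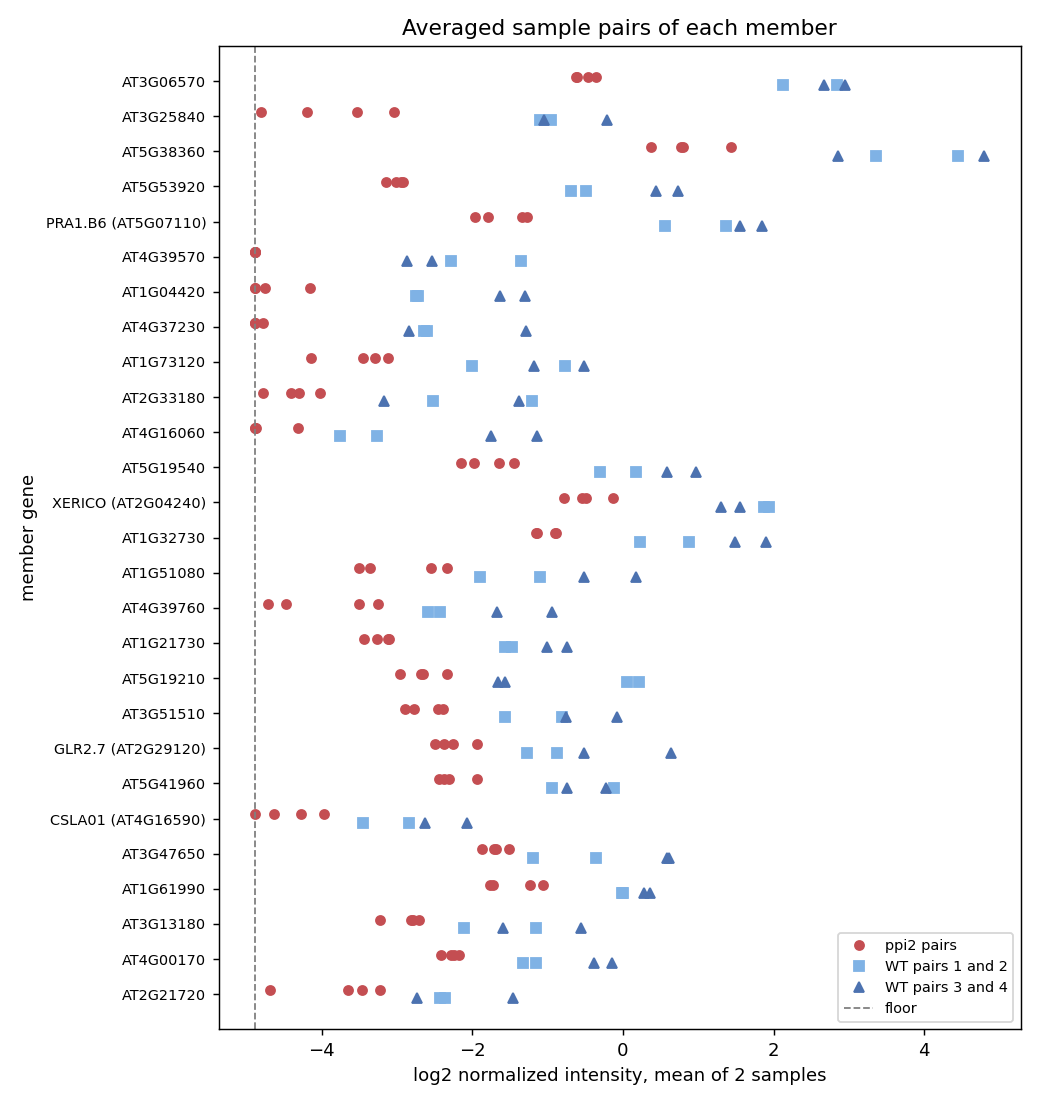
Log2 normalized intensity (horizontal axis) of each member in the 4 averaged ppi2 pairs (red circles), WT pairs 1 and 2 (light squares) and WT pairs 3 and 4 (dark triangles), with the floor dashed. The ppi2 points lie left of the WT points in each row by the rule, and the dark triangles lie farther right than the light squares in most rows.

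The spread within a genotype was wider in WT for most members, as it was for the array. Over the members the median SD of the pairs was 0.27 in ppi2 and 0.65 in WT on the log2 scale. Over all single-gene probes it was 0.29 in ppi2 and 0.65 in WT. The WT pairs spread more than the ppi2 pairs in 24 of 27 members (88.9%) and in 81.1% of single-gene probes. The 3 exceptions were AT3G25840, AT1G61990 and AT2G21720. The floor cuts off the spread of samples that meet it, so ppi2 SDs of such members can be too low. AT4G39570, with all ppi2 samples at the floor, had a ppi2 SD of 0.

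Part of the WT spread followed the sample numbers. Earlier work on these data had seen WT samples 5 to 8 stand apart from WT samples 1 to 4, and no label accounts for it. Of the 27 members, 22 (81.5%) had a higher mean in WT samples 5 to 8 than in WT samples 1 to 4, compared with 51.6% of all single-gene probes. In 11 members (40.7%) every one of WT samples 5 to 8 lay above every one of WT samples 1 to 4, and over all single-gene probes this was so in 12.1%. The median log2 difference between these WT subsets was 0.64 over the members and 0.04 over all single-gene probes. The rule used the same WT values, so these shares are a description. The members were 2.07-fold to 12.02-fold lower than in WT samples 5 to 8, with a median of 5.13-fold, and 1.89-fold to 8.33-fold lower than in WT samples 1 to 4, with a median of 3.32-fold.

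The subsets differed by more than 1.5 times in 16 members. AT4G16060 had the widest difference of this kind, being 9.80-fold lower than in WT samples 5 to 8 and 2.34-fold lower than in WT samples 1 to 4. AT3G47650 was 4.89-fold lower than in WT samples 5 to 8 and 1.89-fold lower than in WT samples 1 to 4. AT5G53920 was 12.02-fold lower than in WT samples 5 to 8 and 5.32-fold lower than in WT samples 1 to 4. The other way round, AT5G19210 was 2.07-fold lower than in WT samples 5 to 8 and 6.94-fold lower than in WT samples 1 to 4. AT4G39570, XERICO, AT2G33180 and AT5G38360 were the other members with a higher mean in WT samples 1 to 4. Some members hardly depended on the subset. AT5G38360 was 7.90-fold lower than in WT samples 5 to 8 and 8.33-fold lower than in WT samples 1 to 4, and AT5G41960 3.44-fold and 3.32-fold lower. The WT pairs of AT5G38360 still spread widely, with an SD of 0.91 on the log2 scale. Its fold was 6.54 without WT pair 3 and 10.2 without WT pair 4.

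**Figure D4:**
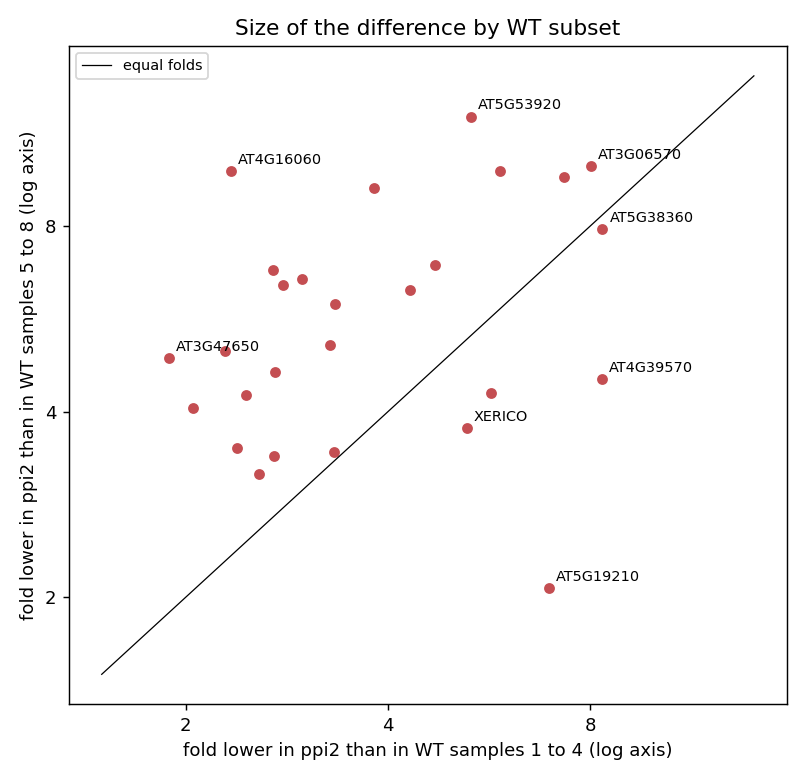
Fold by which each member was lower in ppi2 than in WT samples 5 to 8 (vertical log axis) and than in WT samples 1 to 4 (horizontal log axis), with the line of equal folds. Of the 27 points 22 lie above the line, and AT5G19210 lies farthest below it.

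The samples also differed in brightness as deposited. The median deposited intensity of a sample was 0.168 to 0.269 in ppi2, 0.0976 to 0.124 in WT samples 5 to 8 and 0.198 to 0.212 in WT samples 1 to 4. In the deposited values, with no normalization, 14 members (51.9%) kept all ppi2 samples below all WT samples and 13 overlapped. Over all single-gene probes 3.61% kept them apart on that scale. The rule used the same samples, so nothing is read from these shares. On that scale the median log2 difference over the whole array was 0.29, ppi2 being higher. The members were 1.61-fold to 6.32-fold lower in the deposited values, with a median of 2.84-fold, and 16 of the 27 folds moved by more than 1.5 times from those after normalization. AT5G53920, at 4.77-fold, AT3G25840, at 4.86-fold, XERICO, at 2.86-fold, and AT1G32730, at 2.92-fold, were among them. AT3G06570 was 6.32-fold and AT5G38360 6.02-fold lower on that scale. The part of this difference in brightness in the members' values was not tested.

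For dim members the size of the difference also depended on the floor. With the floor at the 25th percentile of positive intensities, 0.12, the folds of 9 members moved by more than 1.5 times, and with the floor at the 1st percentile, 0.00696, those of 4. AT4G39570 was 1.74-fold lower with the higher floor and 24.1-fold with the lower, AT4G37230 1.73-fold and 19.6-fold, AT1G04420 1.99-fold and 11.4-fold, and AT4G16060 1.76-fold and 8.91-fold. CSLA01 was 1.33-fold and AT3G25840 4.69-fold lower with the higher floor. AT4G39760, with no ppi2 sample at the floor used here, was 2.19-fold lower with the higher floor. The folds of AT3G06570, AT5G38360 and XERICO did not move with the floor. Some ppi2 values at the floor were exact zeros as deposited, 6 in AT4G37230 and 5 in AT4G39570. AT1G04420, AT2G33180 and AT4G16060 had 2 each. No WT value of these members was zero, and whether such a zero is a dim spot or a failed estimate is not known.

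The members were spread over the 5 chromosomes, with 6, 4, 5, 6 and 6 on chromosomes 1 to 5, or 22.2%, 14.8%, 18.5%, 22.2% and 22.2%. Of all single-gene probes 25%, 17.9%, 18.8%, 17.3% and 20.7% belonged to these chromosomes. The criteria that chose the members were met by 6.44% of the 870 probes with several genes and by 8.15% of the 1877 probes with no listed gene. With the direction turned, so that all ppi2 samples lay above all WT samples by as much, they were met by 64 single-gene probes (9.25%).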

How the data were processed

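The table that the authors deposited gave an intensity for each of 3439 probes in each of 16 samples. Spot quantification, background correction and scaling by the authors are not stated in the labels or the file. The deposited values were linear, ended at 100 and held 13.0% to 16.6% exact zeros per sample. Whether a zero is a dim spot or a failed estimate is not known, and precision is limited by the number of arrays. An older platform annotation named the probes' genes, 690 of the 692 single-gene probes matched the RefSeq table of TAIR10.1, and no coordinates or sequences are printed because the array's build and sequences were not used here.

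Columns were mapped to samples by accession, with 0 left over. Values were quantile-normalized (limma 3.58.1, R 4.3.3), set to at least 0.034 and taken to log2. Each sample correlated best with its consecutive partner (Pearson's r across probes 0.959 to 0.979 in ppi2 and 0.902 to 0.938 in WT, against at most 0.953 and 0.870 for other samples of the genotype), so partners were averaged. The fit across all probes used lmFit and eBayes with Benjamini-Hochberg adjustment over all probes at 0.05, and had 6 residual degrees of freedom. A run on simulated data had normal noise with the same SD in both genotypes and no floor. The data differ in both respects, so that run does not show how the fit behaves here. The fit was used for genes and probes that are not members. Members and lists were chosen with earlier results of these data known. All members are named. The 10 with the largest difference and the 3 on each side of the size limit have the lowest, median and highest level per genotype. In ppi2, floor counts stand for these levels in AT4G39570 and AT4G37230. The others have means. Family lists were to come from RefSeq descriptions, but the table holds symbols and synonyms alone, so only the RAB acceptors gave a relative. Protein and promoter features were not analysed here. Alternatives covered the floor, zeros, normalization, WT subsets, limits and pairs left out.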

Additional observations from a re-analysis of the deposited data

Results flagged for a closer look

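Of 54 groups of 4 averaged pairs (27 members in 2 genotypes), 4 had a pair far from the other 3. A rate of 1 in 20 would give 2.7 such groups, and that rate does not hold where the others are tied at or near the floor. AT4G37230 was at a log2 level of -4.78 in ppi2 pair 3, with the other ppi2 pairs at the floor of -4.88. AT4G16060 was at -4.31 in ppi2 pair 3, with the other ppi2 pairs at -4.88 to -4.86. AT4G37230 was at -1.29 in WT pair 4, with the other WT pairs at -2.84 to -2.60. AT3G25840 was at -0.21 in WT pair 3, with the other WT pairs at -1.10 to -0.95.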

How the results depend on the processing

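All 27 members were lower in ppi2 in the 16 alternatives of floor, zeros, normalization, WT subset and left-out pairs. The rule fixes that direction except under other normalizations, which use the same samples that chose the members. The direction is thus no sign of stability in any of the 16. Of 432 differences under these alternatives, 382 moved by less than the SD between pairs and 50 by more. Leaving out a pair cannot move a mean by as much as that SD. The 382 thus include values that could not have come out otherwise. The full criteria were met in all 16 by 7 members, AT3G06570, AT3G25840, AT5G38360, AT5G53920, PRA1.B6, XERICO and AT1G32730, while AT3G13180 missed them in 8. Without a pair or against a WT subset members cannot overlap, so only the size limit can fail. Neither the 382 nor the 7 measures stability.

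The number of genes meeting the rule was 13 in the values as deposited (11 of them members), 69 against WT samples 5 to 8 alone (26 members), 32 against WT samples 1 to 4 alone (16 members), 18 with the higher floor (18 members), 28 after cyclic loess (21 members), 32 after median centring (22 members), 44 with a limit of -1, 17 with a limit of -2 and 54 by size alone. It was 27 to 43 when 1 averaged pair was left out, the highest without WT pair 2. By averaged pairs, an alternative chosen after seeing the data, it was 45. Genes that the rule sets aside are left out of these counts. The cause of the change was not tested, beyond the fewer samples or wider limits that several of these have by construction.

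The fit across all probes called 983 probes, 488 higher and 495 lower in ppi2. It called 1616 with every sample as its own replicate, 686 to 1086 with 1 pair left out, and 845 with the pair number as a replicate block. Against WT pairs 3 and 4 alone it called 1452, and against WT pairs 1 and 2 alone 1000. As deposited, 646 were higher and 231 lower. Same-numbered ppi2 and WT pairs deviated from their group means with correlations of 0.38, 0.31, 0.03 and 0.33, against -0.23 to 0.06 for other combinations. Every ppi2 pair correlated best with its own number, and so did every WT pair but pair 3 (0.06 with ppi2 pair 4). This is a hint from the data that numbers pair samples, which the labels do not state, and with pair 3 near 0 the block was kept as an alternative.

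The probe with AT1G21730 stayed lower and past the threshold in all 20 alternatives (limma adjusted p at most 0.00958). Log2 differences that turned sign, none past the threshold, were 0.74 as deposited, 0.052 after median centring and 0.016 without WT pair 1 for the probe with AT1G61990 (-0.25 to 0.016 with 1 pair left out), and 0.11 as deposited for the probe with AT5G19210. For PRA1.B3 they were 0.77 as deposited, 0.080 after median centring, 0.048 against WT pairs 1 and 2 and 0.21 without ppi2 pair 2 (-0.51 to 0.21 with 1 pair left out). PRA1.B3 was the single relative, and 0 of 1 passed also without probes at the floor everywhere (limma adjusted p 0.211 to 1.0 over all alternatives, 0 of 1 also at an unadjusted p under 0.05).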
